A study of Mus musculus with 8 samples.

Results

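The genes described here encode the contents of the cytotoxic granule of T cells and the protein that guards the cell against them: the granzymes Gzma, Gzmb, Gzmc, Gzmk and Gzmm, perforin (Prf1), the granzyme B inhibitor Serpinb9 and the granule proteoglycan serglycin (Srgn). They were taken by gene name from the array's non-control spots, each with its brightest probe over the 7 conditions, and make up 8 of the 19815 genes measured. Their messenger RNA was read on 8 one-colour Agilent arrays of CD8+ T cells isolated from spleens of OT-I TCR tg mice on a C57BL6 background, in which most T cells carry a transgenic receptor (TCR) for the ovalbumin peptide SIINFEKL on H-2Kb. The ages of the mice, the dose of IFNb, and whether the arrays came from separate mice or cultures are not given in the sources used here, so p-values measure only the spread between these arrays. The treated conditions, with 1 array each, were IFNb (interferon beta, a type I interferon) for 2 h, IFNb for 7 h, SIINFEKL streptamers (complexes of peptide-loaded H-2Kb that engage the TCR) for 1 h, the same for 6 h, IFNb for 1 h followed by 1 h of TCR stimulation, and IFNb for 1 h followed by 6 h of TCR stimulation. Untreated cells, with 2 arrays whose mean was counted as 1 sample, were the baseline. The stated question is the modulation of T cell responses by IFN of this type.

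Cytotoxic T cells store granzymes, a family of serine proteases, in acidic granules, bound to the sulfated chains of serglycin. On contact with a target the granules fuse with the plasma membrane, perforin forms pores in the target's membrane, and granzymes enter it: granzyme B cleaves caspases and Bid after aspartate residues, while granzyme A cuts after basic residues. Serpinb9 is an intracellular serpin that inactivates granzyme B which leaks into the killer's own cytosol. Resting CD8 T cells hold little granule protein and build it up after antigen recognition. In the mouse the genes Gzma and Gzmk lie together on chromosome 13, and Gzmb and Gzmc lie in a cluster of granzyme genes on chromosome 14.

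The promoters of the 4 genes with the largest changes after 6 h of TCR stimulation are shown first, because they differ in which short motifs they hold. Each runs from 250 bases before to 50 bases after the annotated start in RefSeq (build GRCm38.p6), read 5′ to 3′ on the gene's strand. The Gzma promoter is chr13:113100932-113101231 on the minus strand, that of Gzmb chr14:56262285-56262584 on the minus strand, that of Gzmc chr14:56234608-56234907 on the minus strand and that of Serpinb9 chr13:33004291-33004590 on the plus strand. Capitals mark the motifs found, other than the short NFAT core.
Gzma: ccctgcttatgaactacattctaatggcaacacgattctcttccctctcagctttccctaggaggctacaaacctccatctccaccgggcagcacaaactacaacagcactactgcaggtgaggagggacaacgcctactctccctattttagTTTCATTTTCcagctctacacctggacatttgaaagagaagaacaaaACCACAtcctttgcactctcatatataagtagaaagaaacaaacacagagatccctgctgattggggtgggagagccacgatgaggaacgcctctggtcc
Gzmb: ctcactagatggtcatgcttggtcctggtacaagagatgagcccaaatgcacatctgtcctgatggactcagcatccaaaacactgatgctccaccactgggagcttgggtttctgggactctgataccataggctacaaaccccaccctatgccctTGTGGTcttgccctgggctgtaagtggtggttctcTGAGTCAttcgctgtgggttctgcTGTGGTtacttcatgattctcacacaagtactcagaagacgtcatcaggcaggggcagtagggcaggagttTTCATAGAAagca
Gzmc: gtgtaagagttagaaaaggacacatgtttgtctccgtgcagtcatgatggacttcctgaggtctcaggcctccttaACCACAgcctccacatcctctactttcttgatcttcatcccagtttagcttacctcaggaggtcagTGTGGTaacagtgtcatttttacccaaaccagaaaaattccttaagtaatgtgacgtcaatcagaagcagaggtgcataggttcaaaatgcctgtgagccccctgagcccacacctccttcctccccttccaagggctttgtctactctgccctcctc
Serpinb9: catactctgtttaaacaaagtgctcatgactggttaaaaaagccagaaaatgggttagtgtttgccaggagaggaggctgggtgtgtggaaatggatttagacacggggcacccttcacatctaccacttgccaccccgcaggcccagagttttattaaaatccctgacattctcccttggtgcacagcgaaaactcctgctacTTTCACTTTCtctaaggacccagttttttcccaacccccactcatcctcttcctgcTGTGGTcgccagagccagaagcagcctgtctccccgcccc

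Both strands were searched for 7 motifs, and a match describes letters, not a bound site. The interferon-stimulated response element (ISRE, searched as TTTC, any 2 bases and TTTC) was found in the Gzma promoter, as TTTCATTTTC beginning 97 bases before the start, and in that of Serpinb9, as TTTCACTTTC beginning 46 bases before it. These letters occur in 3.44% of 32851 promoters of this length, and among the other genes of the group in 1 of the annotated Srgn promoters. The AP-1 motif (TGANTCA, 7.81% of promoters) was found in the group in the Gzmb promoter alone, as TGAGTCA beginning 58 bases before the start. The RUNX motif (TGTGGT, 16.8% of promoters) stood 2 times in the promoter of Gzmb, 2 times in that of Gzmc and 1 time each in those of Gzma and Serpinb9. Gzmb also held the GAS motif (TTCNNNGAA, 8.3% of promoters) after its start. The T-box motif (TCACACC, 3.98%) and the TATA box as searched (TATAAA, 13.6%) were in none of the 4 windows printed. The NFAT core (GGAAA, 61.3%) stood 2 times each in Gzma and Serpinb9, in Gzma with 1 of them overlapping the ISRE.

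All 8 genes were well above background on 8 of 8 arrays and none was saturated on any array. Signals are on a linear scale with each array's 75th percentile set to 1500 and are compared only within a probe. The other granzyme genes of the chromosome 14 cluster on the array, Gzmd, Gzme, Gzmf, Gzmg and Gzmn, were well above background on 0 of 8 arrays. The probes of the genes with the largest rise and the largest fall after 6 h of TCR stimulation were, in mm9 coordinates, chr14:56851095-56851154 for Gzmc and chr13:113885986-113886045 for Gzma, both on the minus strand.
Gzmc: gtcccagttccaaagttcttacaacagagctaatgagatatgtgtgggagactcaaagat
Gzma: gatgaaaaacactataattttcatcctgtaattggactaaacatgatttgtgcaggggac

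The 8 arrays had a 75th percentile of processed signal of 807 to 1241 intensity units, and 26065 to 29533 of 43379 non-control spots were well above background. They lie on 2 slides: 1 h of TCR stimulation was measured on the first, 6 h on the second, and each holds 1 untreated and 1 IFNb-alone array. The scanner files and the series value table disagree about the 2 arrays with 1 h of TCR stimulation, each being named as the other, and the value table's naming is used. That naming was favoured by interferon-responsive genes, so IFNb differences within this pair are not independent evidence. Markers of CD8 T cells were measured for 9 of 9 genes, with a summed signal between 350639 and 947084. Summed markers of B, erythroid, NK, mast and dendritic or class II presenting cells, like those of CD8 T cells, were highest on the IFNb-alone arrays. The sum of 8 B cell markers was 41380 after IFNb for 2 h and 35456 after 7 h, against 13407 and 13066 in untreated cells, and the sum of 4 erythroid markers was 12644 and 11463, against 3812 and 3794. The dendritic or class II sum was 52656 and 31476, against 23740 and 23291, and the mast cell or basophil sum 3327 and 3369, against 2683 and 2779. The sum of 11 NK cell markers was 5922 and 5680 on these IFNb arrays, against 3322.5 and 3257 in untreated cells, with Ncr1, the defining NK marker, well above background on 2 of 8 arrays. Ncr1 had a signal of 33.1 after IFNb for 2 h and 52.7 after 7 h, and of 6.0 to 12.0 in the other conditions. With TCR stimulation the sums with IFNb over those without were 0.719 at 1 h and 1.21 at 6 h for NK cells, 0.895 and 1.17 for B cells, and 1.13 and 1.64 for erythroid cells, 0.676 and 1.28 for dendritic or class II presenting cells, and 1.16 and 1.28 for mast cells. The sum of 7 markers of memory phenotype CD8 T cells was 121379 after IFNb for 2 h and 412955 after 7 h, against 101911 and 100203 in untreated cells, and Ly6c2 made up 276005 of the sum at 7 h.

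The granule genes moved in different directions after 6 h of TCR stimulation. Gzmc, a granzyme of the Gzmb cluster, rose 103-fold, Gzmb 23.3-fold and its inhibitor Serpinb9 17.6-fold, Srgn rose 2.07-fold, and Gzma fell to a level 14.5-fold lower. Prf1, Gzmk and Gzmm did not pass the test. In limma's additive model (terms for IFNb, TCR 1 h and TCR 6 h over 7 samples), 5 of the 8 genes passed an adjusted p of 0.05 for TCR 6 h, 4 higher and 1 lower. Over all genes 45.1% passed, 22.3% higher and 22.8% lower, so a call at 6 h was common. With each array scaled to its median there were 5936 higher and 3540 lower calls, against 4413 and 4520 here, and the median change of all genes was 0.37 on the log2 scale, against 0.05. Directions are relative to that scale, and the 5 genes had the same direction under it. With slide as a block all 5 also passed.

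**Figure D1:**
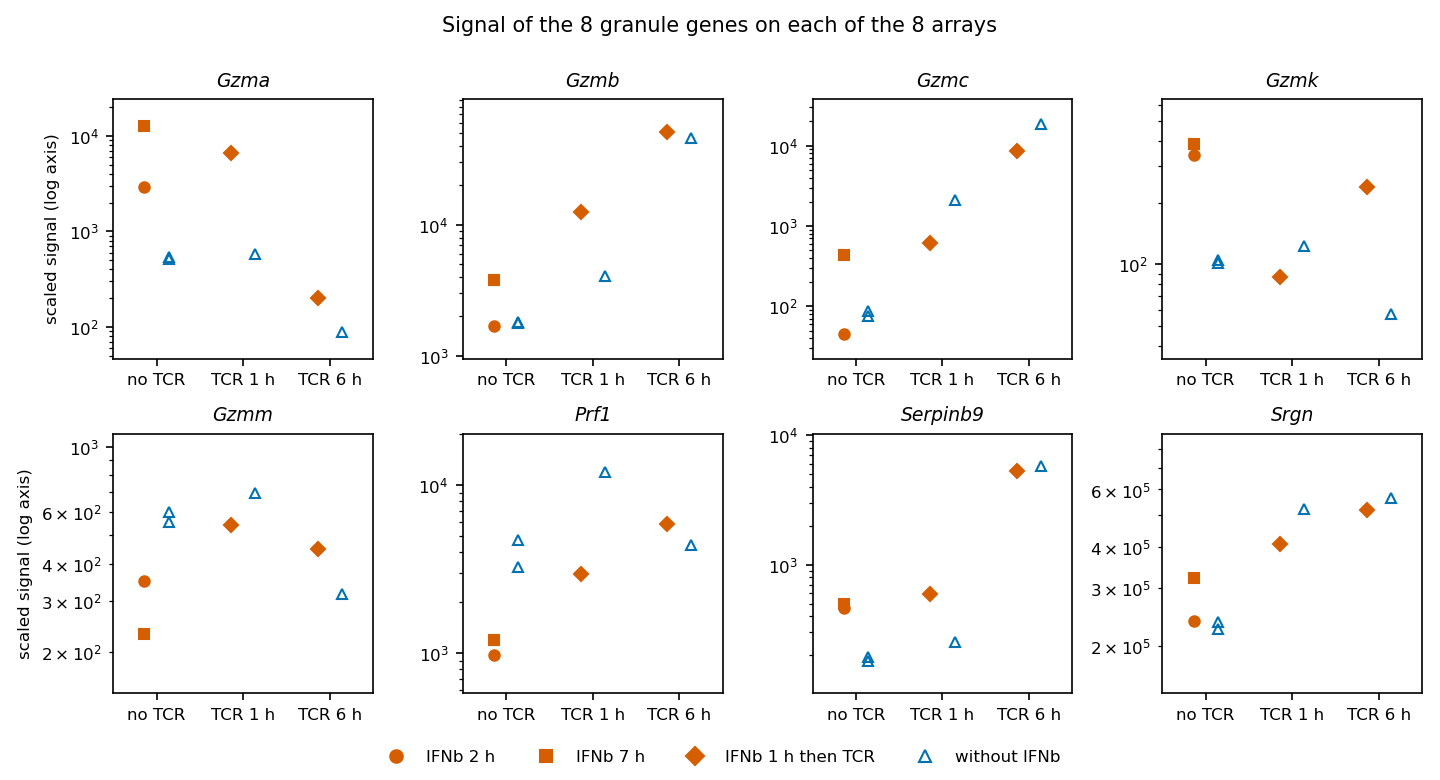
Scaled signal of each gene on each array (log axes that differ between panels), by TCR stimulation, with filled orange symbols for cells given IFNb and open blue triangles for cells without it. Gzmb, Gzmc and Serpinb9 are highest on both arrays with 6 h of TCR stimulation, and Gzma is lowest there.

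Gzmb, the main caspase-cleaving granzyme, had signals of 1691 after IFNb for 2 h, 3781 after IFNb for 7 h, 12501 after IFNb then TCR 1 h and 51226.5 after IFNb then TCR 6 h. Without IFNb it had 1811 and 1783 in untreated cells, 4078 after TCR 1 h and 45695 after TCR 6 h. Both arrays at 6 h of TCR stimulation were above all others, and both at 1 h were above all arrays without TCR stimulation. The TCR 6 h change was 4.54 ± 0.47 on the log2 scale (SE, adjusted p = 0.000783 in limma, higher in 2 of 2 pairs of arrays), and the TCR 1 h change, 1.78 ± 0.47, did not pass (adjusted p = 0.0872). The change at 6 h exceeded that at 1 h by 2.76 ± 0.51 (adjusted p = 0.00969). That difference was lost without the TCR 1 h array (2.13, adjusted p = 0.0635) and with slide as a block (2.19, adjusted p = 0.0734).

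Gzmc, a protease whose targets are less well defined, spanned 414-fold between its highest and lowest condition, the widest of the 8 genes. Its signals were 45.3 after IFNb for 2 h, 435 after IFNb for 7 h, 621 after IFNb then TCR 1 h and 8679 after IFNb then TCR 6 h. Without IFNb they were 75.2 and 86.7 in untreated cells, 2125 after TCR 1 h and 18740.2 after TCR 6 h. At 1 h and at 6 h of TCR stimulation the array with IFNb was below the one without, and both arrays at 6 h were above all others. The TCR 6 h change was 6.68 ± 1.03 (SE, adjusted p = 0.00302 in limma), and over the 20 alternatives run it lay between 4.95 and 7.72 and passed in 20. The TCR 1 h change of 3.21 ± 1.03 did not pass (adjusted p = 0.13), nor did the difference between 6 h and 1 h, 3.47 ± 1.11 (adjusted p = 0.0574).

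Serpinb9 had signals of 461 after IFNb for 2 h, 499.7 after IFNb for 7 h, 592 after IFNb then TCR 1 h and 5341 after IFNb then TCR 6 h. Without IFNb it had 192 and 179.9 in untreated cells, 251 after TCR 1 h and 5769 after TCR 6 h. The inhibitor was thus high at 6 h of TCR stimulation with and without IFNb. By this probe its 3 other arrays with IFNb were all above its 3 other arrays without it. The TCR 6 h change was 4.14 ± 0.38 (SE, adjusted p = 0.000592 in limma) and that at 1 h was 0.29 ± 0.38 (adjusted p = 0.716). The 6 h change exceeded the 1 h change by 3.85 ± 0.41 (adjusted p = 0.00239) and passed in 18 of 18 alternatives. A second Serpinb9 probe was dimmer by mean log2 signal over the 7 conditions, but at TCR 6 h it was the brighter one. Its signals there were 6836 with IFNb and 8942 without. This dimmer probe gave a larger TCR 6 h change, 34.0-fold, and a smaller IFNb change, 1.26-fold against 1.85-fold by the brighter probe. By the dimmer probe the signal after IFNb for 2 h, 218, was below that after TCR 1 h without IFNb, 291.

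Srgn, whose chains hold granzymes and perforin in the granule, had the narrowest range, 2.46-fold between its highest and lowest condition. Its signals were 237907 after IFNb for 2 h, 322708 after IFNb for 7 h, 407945 after IFNb then TCR 1 h and 520341 after IFNb then TCR 6 h. Without IFNb they were 235468 and 224590.0 in untreated cells, 523980.0 after TCR 1 h and 564907 after TCR 6 h. All 4 arrays with TCR stimulation lay above all 4 without it. The TCR 6 h change was 1.05 ± 0.27 (SE, adjusted p = 0.0218 in limma) and the 1 h change of 0.82 ± 0.27 did not pass (adjusted p = 0.141). The 6 h call was lost without the IFNb 2 h array (0.99, adjusted p = 0.0673), the TCR 6 h array (1.00, adjusted p = 0.0978) or the array for IFNb then TCR 6 h (1.12, adjusted p = 0.118), on slide 2 alone (1.01, adjusted p = 0.0823), and with quantile normalization (0.59, adjusted p = 0.0606).

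**Figure D2:**
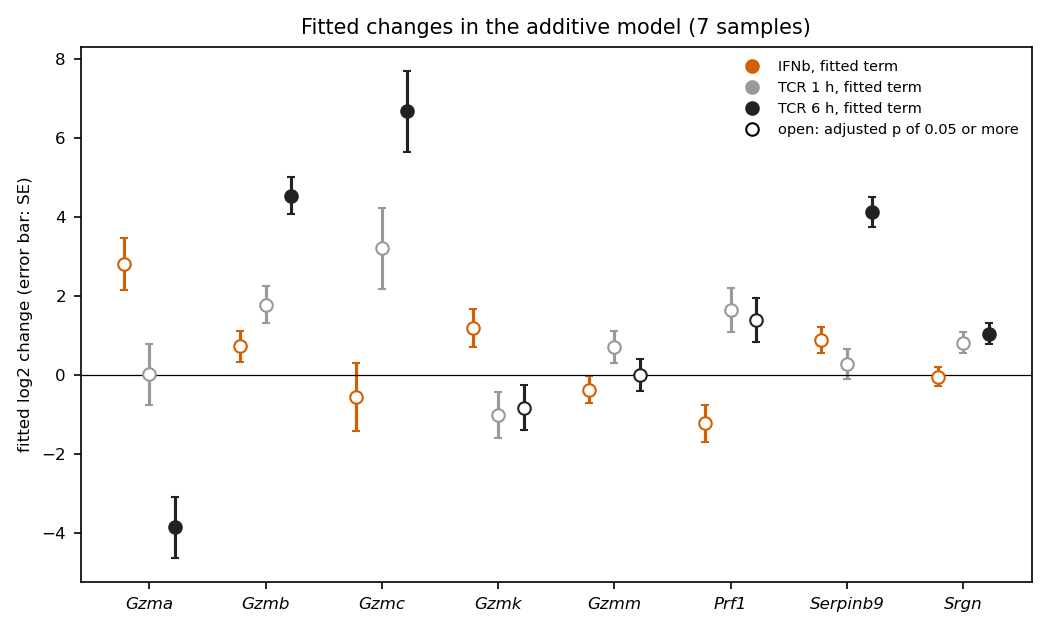
Fitted log2 change of each gene for IFNb (orange), TCR 1 h (grey) and TCR 6 h (black) in the additive model, with the SE as error bar, where filled points passed an adjusted p of 0.05. Passing points are all at TCR 6 h: Gzma at -3.86, Gzmb at 4.54, Gzmc at 6.68, Serpinb9 at 4.14 and Srgn at 1.05.

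Gzma, the tryptase-like granzyme, fell at TCR 6 h, where Gzmb rose. Its signals were 2929 after IFNb for 2 h, 12586 after IFNb for 7 h, 6622 after IFNb then TCR 1 h and 201 after IFNb then TCR 6 h. Without IFNb they were 538 and 518 in untreated cells, 583 after TCR 1 h and 89.6 after TCR 6 h. Both arrays at 6 h of TCR stimulation lay below all others, and at each TCR time every array with IFNb lay above those without. The TCR 6 h change was -3.86 ± 0.78 on the log2 scale (SE, adjusted p = 0.00856 in limma, lower in 2 of 2 pairs) and the 1 h change 0.02 ± 0.78 (adjusted p = 0.993). The change at 6 h differed from that at 1 h by -3.87 ± 0.85 (adjusted p = 0.0172), a call that held in 13 of 18 alternatives. It was lost with the scanner files' naming of the 1 h pair (-3.87, adjusted p = 0.154), with normexp and quantile normalization (-2.90, adjusted p = 0.0503) and without the array for TCR 1 h (-4.37, adjusted p = 0.0636), IFNb then TCR 1 h (-3.38, adjusted p = 0.129) or IFNb then TCR 6 h (-2.70, adjusted p = 0.0915). In RNA from whole cell populations, fewer Gzma-expressing cells and less Gzma RNA per cell cannot be told apart.

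The Gzma call at TCR 6 h rested in part on the array for IFNb then TCR 6 h, without which it was -2.56 (adjusted p = 0.084). Under the scanner files' naming of the 1 h pair it was -4.21 (adjusted p = 0.0851). On the same arrays 5 of 11 measured NK cell markers and 4 of 7 B cell markers fell, against 22.8% of all genes. So did 4 of 9 CD8 T cell, 5 of 7 dendritic or class II, 2 of 7 mast cell or basophil and 1 of 8 myeloid markers. The NK cell marker Klri2 rose, as did 22.3% of all genes. The summed NK signal after TCR 6 h was 0.676 of that in untreated cells, and the summed CD8 T cell signal was 0.515 of its untreated value. The part of these shifts in the Gzma value was not tested. Gzma after TCR 6 h was 5.89-fold lower than in untreated cells, and after IFNb then TCR 6 h it was 62.6-fold lower than after IFNb for 7 h. The 2 arrays of the latter pair are labelled with 1 h and 7 h of IFNb. Whether IFNb stayed on during TCR stimulation is not in the sample labels. Gzma was 4.30-fold higher after IFNb for 7 h than for 2 h, so the 62.6-fold cannot be given to TCR stimulation alone.

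Prf1, the pore former, had signals of 974 after IFNb for 2 h, 1193 after IFNb for 7 h, 2969 after IFNb then TCR 1 h and 5834 after IFNb then TCR 6 h. Without IFNb it had 3226 and 4734 in untreated cells, 11876 after TCR 1 h and 4379.65 after TCR 6 h. Without IFNb the single highest array was at 1 h of TCR stimulation, and its 2 untreated arrays differed 1.47-fold, the most among the 8 genes. The changes were 1.64 ± 0.56 at TCR 1 h (SE, adjusted p = 0.147 in limma) and 1.41 ± 0.56 at TCR 6 h (adjusted p = 0.0844). At 6 h it passed in 3 of 20 alternatives, among them the fit without the TCR 6 h array (2.46, adjusted p = 0.00384).

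Gzmk, a tryptase-like granzyme close to Gzma, had signals of 342 after IFNb for 2 h, 387 after IFNb for 7 h, 86.9 after IFNb then TCR 1 h and 239 after IFNb then TCR 6 h. Without IFNb it had 101 and 104 in untreated cells, 123 after TCR 1 h and 57.2 after TCR 6 h. Gzmm, which cleaves after methionine and related residues, had 349, 230.0, 542 and 449.6 on the arrays with IFNb in the same order, and 599 and 556 in untreated cells, 697 after TCR 1 h and 316 after TCR 6 h. The 2 genes stayed within 6.77-fold and 3.03-fold over all conditions. Neither passed at TCR 6 h (-0.83 ± 0.57 for Gzmk, adjusted p = 0.286, and 0.01 ± 0.40 for Gzmm, adjusted p = 0.988, in limma) nor at TCR 1 h (-1.01 ± 0.57, adjusted p = 0.354, and 0.71 ± 0.40, adjusted p = 0.348).

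At 1 h of TCR stimulation 0 of the 8 genes passed, against 4.3% of all genes (2.57% higher and 1.73% lower). An unadjusted p under 0.05 in limma was reached by 4 of them and by 4671 of 19814 genes. The 4 values were 1.78 for Gzmb, 3.21 for Gzmc, 1.64 for Prf1 and 0.82 for Srgn. By the value table's naming each of these 4 was higher in 2 of 2 pairs of arrays, as were Gzma, Gzmm and Serpinb9. Under the scanner files' naming Gzmb, Gzmc and Srgn remain higher in both pairs. With that naming Prf1, Gzma, Gzmm and Serpinb9 are each lower in 1 of the pairs. The share of all genes higher in both pairs was not computed. Between 6 h and 1 h, 3 of 8 passed (Gzmb and Serpinb9 higher, Gzma lower at 6 h), against 32.1% of all genes, 16.4% higher and 15.6% lower. The difference was -0.23 ± 0.60 for Prf1, 0.23 ± 0.30 for Srgn, 0.18 ± 0.62 for Gzmk and -0.71 ± 0.44 for Gzmm, and none of these 4 passed.

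**Figure D3:**
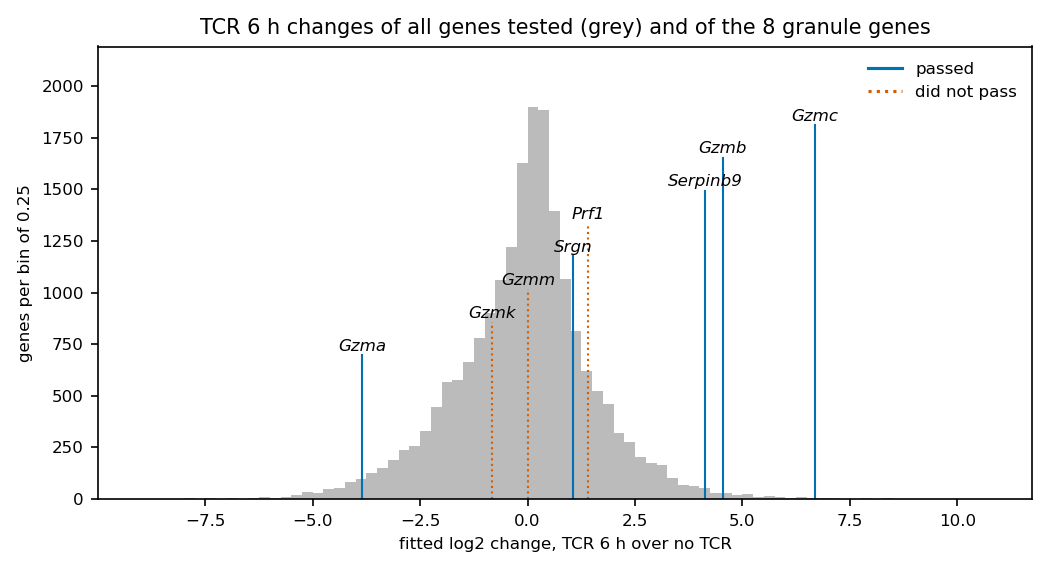
Histogram of the fitted TCR 6 h log2 change of 19814 genes (grey, bins of 0.25), with a line for each granule gene, solid where it passed. Serpinb9, Gzmb and Gzmc lie in the upper tail, Gzma lies in the lower tail, and Gzmm lies near the median of 0.05.

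The fitted IFNb difference was larger for Gzma than for the other genes, and Gzma was higher with IFNb in 4 of 4 pairs of arrays: 5.55-fold at IFNb 2 h, 23.9-fold at IFNb 7 h, 11.4-fold at TCR 1 h and 2.24-fold at TCR 6 h, where Gzmk was 4.19-fold higher. The fitted Gzma difference was 2.81 ± 0.65 on the log2 scale (SE, 4 arrays with IFNb against 3 samples without) and missed the threshold over all genes (adjusted p = 0.335 in limma). Of the 8 genes 0 passed, and of all genes 0.0656% did, 13 higher and 0 lower. An unadjusted p under 0.05 was reached by 4 of the 8, Gzma, Gzmk and Serpinb9 with higher values and Prf1 with a lower one, and by 1700 of 19815 genes. For Serpinb9 this held for the brighter probe only, the dimmer one having an unadjusted p of 0.341 in limma. The Gzma estimate was 0.71 under the scanner files' naming of the 1 h pair, and on slide 1 alone it was 2.98 and passed (adjusted p = 0.0313).

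Marker sums of other cells also differed between the arrays of these pairs. For NK cells, which also express Gzma and Prf1, the sum was 1.8-fold higher at IFNb 2 h and 1.73-fold at IFNb 7 h, where Gzma was 5.55-fold and 23.9-fold higher. Most of the untreated NK sum came from Tyrobp (1467) and Fcer1g (1186), and single markers, named after their values were seen, differed. After IFNb for 2 h and 7 h Klra8 had 295 and 356, against 64.8 in untreated cells, and Klre1 285 and 349, against 69.5. Klrb1c had 138 and 195, against 133, and Klri2 was lower, at 29.4 and 23.6 against 40.1. At TCR 1 h the NK sum was 0.719 of that without IFNb, where Gzma was 11.4-fold higher, with the naming of that pair unsettled. The part of NK cells in the Gzma values was not tested. The memory phenotype sum was 1.20, 4.09 and 1.18 times that without IFNb in these 3 pairs, and its members differed. Il2rb was lower after IFNb for 2 h and 7 h, at 4385 and 5449 against 21165 in untreated cells. Cd44 and Cxcr3 were also lower at both times, while Ly6c2, Ccl5 and Eomes were higher at both. Ly6c1 was lower at 2 h and higher at 7 h. The part of memory phenotype cells in the Gzma values was not tested. Gzmk was higher with IFNb by 3.33-fold at IFNb 2 h, 3.77-fold at IFNb 7 h and 4.19-fold at TCR 6 h and lower at TCR 1 h, and the B cell sum was 3.13-fold, 2.68-fold and 1.17-fold higher in the first 3 of these pairs. The part of other cells in the Gzmk difference (1.20 ± 0.48, adjusted p = 0.568 in limma) was not tested.

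Prf1 was about 4.0-fold lower with IFNb at 2 h and at TCR 1 h and 3.28-fold lower at IFNb 7 h, but 1.33-fold higher at TCR 6 h, and its fitted IFNb difference was -1.22 ± 0.47 (SE, adjusted p = 0.549 in limma). Leaving out either one of the arrays with 6 h of TCR stimulation gave -1.92. Under the scanner files' naming of the 1 h pair the fitted IFNb difference of Prf1 was -0.02 (adjusted p = 0.999 in limma). With that naming the differences of Serpinb9, Gzmb and Gzmc were 0.14, -0.24 and 0.52, and none passed. Every fold at TCR 1 h given here is inverted under it. Serpinb9 was 2.48-fold, 2.69-fold and 2.36-fold higher with IFNb at IFNb 2 h, IFNb 7 h and TCR 1 h, and at TCR 6 h the level with IFNb was 0.926 of that without (0.89 ± 0.32, adjusted p = 0.521). Gzmb stood at 0.941 of untreated at IFNb 2 h, 2.10-fold higher at IFNb 7 h, 3.07-fold higher at TCR 1 h and 1.12-fold higher at TCR 6 h (0.73 ± 0.39, adjusted p = 0.661). Gzmc was lower with IFNb in 3 of 4 pairs, by 1.78-fold at IFNb 2 h, 3.42-fold at TCR 1 h and 2.16-fold at TCR 6 h, and 5.38-fold higher at IFNb 7 h (-0.55 ± 0.86, adjusted p = 0.892). Gzmm was lower in 3 of 4 pairs (-0.37 ± 0.34, adjusted p = 0.799), and Srgn stood at -0.04 ± 0.23 (adjusted p = 0.977).

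**Figure D4:**
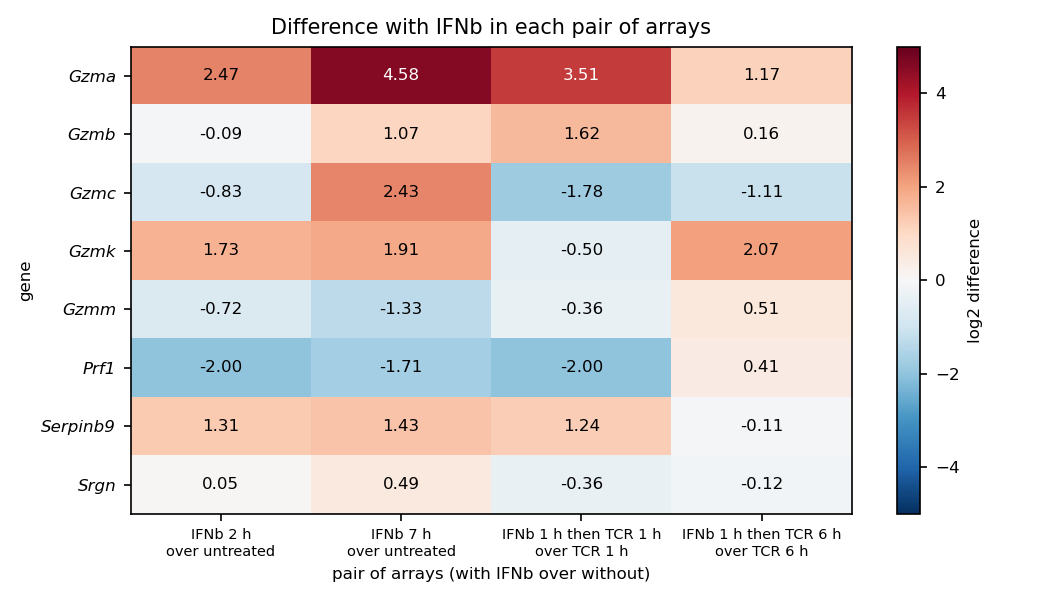
Log2 difference with IFNb over without IFNb for each gene (rows) in each of the 4 pairs of arrays (columns), coloured from blue (lower with IFNb) to red (higher). Gzma is positive in 4 of 4 pairs, from 1.17 to 4.58, while Prf1 is negative in 3 and 0.41 at TCR 6 h.

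Whether IFNb changed the response to the TCR was tested as an interaction, with IFNb 2 h and 7 h sharing 1 mean and 1 residual degree of freedom. None of the 8 genes passed at either time in limma, and 0 of all genes did, a background of 0%, although 1505 genes at 1 h and 1617 at 6 h had an unadjusted p under 0.05. The smallest p-values among the 8 genes in limma were those of Gzmk at 1 h (-2.33 ± 0.47, adjusted p = 0.57) and Prf1 at 6 h (2.27 ± 0.50, adjusted p = 0.523). For Gzma the interaction was -0.02 ± 1.45 at 1 h and -2.36 ± 1.45 at 6 h (adjusted p = 0.997 and 0.79), so differences of several log2 units lay within its error. For Gzmb it was 1.12 ± 0.89 and -0.33 ± 0.89 (adjusted p = 0.763 and 0.955).

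The order of the 7 conditions differed from gene to gene. For Gzma it ran, from the highest, IFNb 7 h, IFNb then TCR 1 h, IFNb 2 h, TCR 1 h, untreated, IFNb then TCR 6 h and TCR 6 h, and for Gzmb IFNb then TCR 6 h, TCR 6 h, IFNb then TCR 1 h, TCR 1 h, IFNb 7 h, untreated and IFNb 2 h. The only replicate spread is the fold between the 2 untreated arrays, 1.02 for Gzmb to 1.47 for Prf1. Neighbours in the order differed by less than that gene's fold for 4 pairs of conditions in Prf1, among them TCR 6 h and untreated, for 2 in Srgn (TCR 1 h with IFNb then TCR 6 h, and IFNb 2 h with untreated) and for 1 in Gzmm (untreated with IFNb then TCR 1 h). In the other 5 genes each neighbour differed by more.

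Genes most alike in profile were found by the root mean square difference of mean-centred log2 profiles over the 7 conditions, among 13755 genes. For Gzma they were Herc5 (0.447), Ddx58 (0.461), which encodes the RNA sensor RIG-I, and Zfp975 (0.515). For Gzmb they were Bspry (0.382), the surface glycoprotein gene Cd200 (0.453) and Dfna5 (0.488), and for Serpinb9 St6galnac4 (0.216), the interleukin 15 receptor chain gene Il15ra (0.303) and Phgdh (0.366). Gzmc had no close match, with Utf1 at 1.01, Chac1 at 1.02 and Lilrb4a at 1.08. The genes nearest to Gzmk were Tagln3 (0.392), the B lineage surface gene Ly6d (0.454) and the beta globin gene Hbb-bt (0.479). Those nearest to Prf1 were Nkx1-1 (0.335), Gabpb2 (0.339) and Mrtfb (0.356), those nearest to Gzmm Tbc1d2 (0.143), Mefv (0.17) and Oat (0.183), and those nearest to Srgn Ppp4c (0.0899), Sub1 (0.115) and Ppp1r2 (0.118).

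Other genes of the granule pathway moved both ways at TCR 6 h, and 0 genes of any of these lists passed for IFNb. The counts of each list stand against 22.3% of all genes higher and 22.8% lower at TCR 6 h. Of 6 measured serpins other than Serpinb9, 3 rose and 0 fell (Serpinb6b by 3.82 ± 0.32, Serpina3f by 3.15 ± 0.59 and Serpina3g by 3.04 ± 0.50 on the log2 scale, SE, in limma), with a list median of 1.63 against 0.05 for all genes. Of 8 granule proteases and their regulators 2 rose and 4 fell, with a median of -1.24: cathepsin C, which activates progranzymes, rose (Ctsc, 1.72 ± 0.36), as did its inhibitor cystatin F (Cst7, 2.49 ± 0.47), while Ctsd stood at -3.39 ± 0.27, Ctsw at -3.07 ± 0.42 and Ctsb at -2.54 ± 0.24. In sorting to the granule 4 of 14 rose and 1 fell, with a median of 0.08. The mannose 6-phosphate receptor gene M6pr rose by 2.21 ± 0.25, the granule membrane gene Nkg7 by 2.15 ± 0.31 and Gnptab, which makes the mannose 6-phosphate tag, by 1.15 ± 0.33, while the lysosomal trafficking regulator Lyst stood at -3.03 ± 0.29.

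Among 17 genes of granule exocytosis 5 rose and 5 fell, with a median of 0.42, where 22.3% of all genes rose and 22.8% fell. The synaptotagmin-like genes, partners of Rab27a, split: Sytl3 rose by 4.02 ± 0.33 and Sytl1 stood at -3.73 ± 0.45 (SE, in limma). Rab27a itself, needed for docking, rose by 1.84 ± 0.27, and the vesicle SNARE gene Vamp8 stood at -1.85 ± 0.28. For the chains carried by serglycin 4 of 9 synthesis genes rose and 2 fell (median 0.34), with Chsy1 at 3.25 ± 0.27 and Chpf at 2.11 ± 0.29, both of chondroitin polymerisation, and Chst12 at -3.43 ± 0.39 and B4galt7 at -2.16 ± 0.29. Of 5 death ligand genes 2 rose (Tnf by 6.17 ± 0.55 and Lta by 4.42 ± 0.71) and 0 fell, with a median of 0.89.

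Of 20 transcription factors linked to cytotoxic genes 7 rose and 6 fell at TCR 6 h, with a median of 0.23. Irf4 rose by 5.47 ± 0.40, Tbx21 (T-bet) by 4.61 ± 0.30 and Zeb2 by 3.59 ± 0.31, while Tcf7, which is high in naive and memory cells, stood at -3.83 ± 0.30 (SE, in limma). At TCR 1 h, where 4.3% of all genes passed, 7 genes of these lists did: Tbx21 (5.42 ± 0.30) and Irf4 (5.11 ± 0.40) among the transcription factors, Tnf (7.74 ± 0.55) among the death ligands, Stx11 (2.30 ± 0.31) and Sytl3 (2.26 ± 0.33) in exocytosis, M6pr (1.53 ± 0.25) in sorting and Xylt2, at -1.38 ± 0.25, in chain synthesis. None of the serpins or granule proteases passed at 1 h. Stx11, Xylt2 and Ctsc are named after their values were seen.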

How the data were processed

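The deposited scanner files give linear intensity, already background-subtracted, from Agilent Feature Extraction (10.7.3.1 per the file headers, 9.5.3.1 per the submitters' processing notes), with no scaling across arrays. The deposited values of the series hold the same intensity times 1 factor per array, with 75th percentiles of 1414 to 1444, column medians of 73.8 to 102 and values under 15 set to 15. Its 6 matching and 2 exchanged columns were found by that exact ratio, which settles scale, centring and direction. Probe coordinates are mm9. Control and outlier spots were left out, repeated spots averaged on the log2 scale, and log2 intensity scaled to the 75th percentile. Probes well above background on at least 2 arrays were kept (28573 of 41174), leaving 19815 genes with the brightest probe of each. By accession 26682 probes took a RefSeq symbol, 3167 of them a changed one, and 14492 kept the file's name.

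The 2 untreated arrays (579 of 19730 genes at least 2-fold apart) were averaged. The linear models used limma 3.58.1 under R 4.3.3 (package data.table, version 1.17.8), with Benjamini-Hochberg adjustment over all genes at 0.05. The additive model has 3 residual degrees of freedom, and its IFNb term pools arrays labelled with 1 h, 2 h and 7 h of IFNb. The script was tested on simulated data. Tables and figures were made in Python 3.11.15 with pandas 2.3.3, numpy 2.4.6 and matplotlib 3.10.9. Alternatives were 21 in all: naming of the 1 h pair, slide, scaling, background correction, filter, probe choice, value table and leaving out each array. The number of arrays limits the precision. The genes and all lists were chosen with earlier results of these data known. Named genes are the 8 members in every comparison, the 4 largest passing changes of each list at TCR 6 h (fewer where fewer passed), and the 3 nearest profiles of each member. Promoters come from RefSeq, of which all 8 genes had at least 1.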

Additional observations from a re-analysis of the deposited data

Results flagged for a closer look

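The effect of TCR stimulation differed between 6 h and 1 h by limma's contrast for 3 granule genes: by -3.87 for Gzma, 2.76 for Gzmb and 3.85 for Serpinb9 on the log2 scale. The Serpinb9 difference passed in 18 of 18 alternatives, that of Gzmb in 16 and that of Gzma in 13. Adjusted p reached 0.0734 for Gzmb, with slide as a block, and 0.154 for Gzma, with the scanner files' naming of the 1 h pair. The 2 times lie on different slides, each with its own untreated and IFNb-alone array. For Gzma the pairs of arrays also had opposite signs, -2.56 and -5.97 at 6 h against 0.14 and 1.18 at 1 h, a difference of mean log2 of -4.92. Under the scanner files' naming the 2 pairs at 1 h have different signs, so this pattern is lost. Gzma after TCR 1 h would then be 6622, against 538 and 518 in untreated cells. After IFNb then TCR 1 h it would be 583, against 2929 after IFNb for 2 h. The opposite signs that follow for Srgn hold only under the value table's naming, as the scanner files' naming inverts its TCR 1 h difference. For Srgn the IFNb difference was positive without TCR stimulation (0.05 at IFNb 2 h and 0.49 at IFNb 7 h). With TCR stimulation it was negative (-0.36 at TCR 1 h and -0.12 at TCR 6 h). That difference of means, -0.51, was not tested as such, and the fitted interactions of -0.63 and -0.39 did not pass in limma (adjusted p = 0.773 and 0.92).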

How the results depend on the processing

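No paired analysis was possible because only the untreated arrays carry replicate numbers, so replicate number could not be a block. Slide could be and was fitted as a block. Over 840 values of single members under the alternatives 769 kept their direction and call, 20 gained a call, 14 lost one and 37 moved without one, and no called value changed sign. Gzmb, Gzmc and Serpinb9 passed at TCR 6 h in 20 of 20 alternatives, Gzma in 18 and Srgn in 15. These alternatives are not all separate checks. Leaving out either or both of the 1 h TCR arrays gave the same TCR 6 h estimates. The 13 genes called for IFNb became 87 with the untreated arrays as separate samples, 51 with slide as a block, 290 on slide 1 alone (1 member, Gzma), 46 scaled to the median, 8 without a filter on dim probes, 78 for probes well above background on all 8 arrays and 43 from the value table. They were 0 with the scanner files' naming, without both 1 h TCR arrays, with quantile normalization (after normexp too) and on slide 2 alone. The 852 genes called at TCR 1 h became 2556 (1 member, Gzmb) with the untreated arrays separate, 374 with the scanner files' naming, 456 on slide 1 alone (1 member, Gzmc), 1773 with normexp and quantile normalization (1 member, Srgn), 531 without a filter and 1671 well above background on all 8 arrays (1 member, Gzmb). The 6354 genes called for the difference between 6 h and 1 h became 2827 with slide as a block. The interaction at 1 h had 64 calls with the scanner files' naming. Leaving out 1 array at a time gave 0 to 281 genes and 0 to 1 member (Prf1, without either TCR 6 h array) for IFNb, 40 to 836 genes and 0 to 1 member (Gzmc without IFNb 7 h, Prf1 without either TCR 6 h array) for TCR 1 h, 4753 to 8910 genes and 3 to 5 members for TCR 6 h, and 2829 to 6351 genes and 2 to 4 members for the difference between 6 h and 1 h. The 3 members at TCR 6 h were Gzmb, Gzmc and Serpinb9, without the array for IFNb then TCR 6 h. The cause of these shifts was not tested. Signal over background limited no member, each being well above it on 8 of 8 arrays.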

Other observations

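The death ligand gene Tnfsf10 (TRAIL) and the T-box factor gene Eomes, both singled out after their values were seen, were higher with IFNb in 3 of 4 pairs of arrays or more. These pairs include the 1 h TCR pair, whose naming was favoured by interferon-responsive genes, so that pair is not independent evidence. Its differences are inverted under the scanner files' naming. Tnfsf10 had signals of 1909 after IFNb for 2 h, 1688 after IFNb for 7 h, 1176 after IFNb then TCR 1 h and 114 after IFNb then TCR 6 h, against 51.6 in untreated cells, 69.0 after TCR 1 h and 61.6 after TCR 6 h. Eomes had 2117, 3162, 1933 and 759.6 with IFNb in the same order, against 368 in untreated cells, 253 after TCR 1 h and 787 after TCR 6 h. Neither passed for IFNb in limma (3.54 ± 0.74, adjusted p = 0.288, and 1.99 ± 0.58, adjusted p = 0.418).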
